A study of Mus musculus with 20 samples.

Results

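The p53 pathway and its apoptotic arm were followed through 33 genes, matched by mouse gene symbol to the NCBI Gene numbers of the deposited tables. All 33 were found among the 19311 genes of one table and the 24454 genes of the other. They were chosen by name, not by a measured value, and fall into 8 classes by role: p53 and its inhibitor Mdm4, p53 targets of arrest and growth control, p53 targets of repair, death receptors, BH3-only proteins, pore-forming effectors, pro-survival Bcl2 proteins, and the apoptosome with its caspase and caspase inhibitor. A filter on low values, which asked for 2 or more libraries at 1 RPKM or above, or at 0.5 CPM or above, passed 31 of the 33 in each table. Gdf15, a secreted cytokine of the TGF-beta family, and Bik, a BH3-only protein, did not pass in either table and were not tested.

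RNA sequencing covered 20 libraries of mouse breast cancer cells from the MMTV-PyMT strain, in which the polyoma middle T oncogene is driven by a mammary tumour virus promoter. M1, M2 and M3 are clonal lines that the labels call stably mesenchymal, and each is a single clone. Py2T LT, the line they were set against, are Py2T cells kept in 2 ng/ml TGF-beta 1 for over 10 days, which induces a mesenchymal state. M3 cells carrying an shRNA against Tet2 or Mbd3, or a control shRNA, were grown for 72 hours in 2 µM CI994, which blocks histone deacetylases of class I, or without it. Tet2 oxidises methylated cytosine, and Mbd3 belongs to NuRD, a complex with deacetylase activity; all lines share the MMTV-PyMT background, and all 12 shRNA libraries come from the 1 clone M3. Each of the 10 groups had 2 libraries, from 2 independent experiments per the labels. The p-values measure the spread between such libraries.

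p53 is a transcription factor that is kept low by Mdm2, which marks it for degradation, and held inactive by Mdm4. Under stress it raises genes that halt the cell cycle, repair DNA or prepare cell death. The mitochondrial death route is set by the Bcl2 family: BH3-only proteins free Bax and Bak1 from pro-survival relatives, cytochrome c release assembles Apaf1 and caspase 9 into the apoptosome, and Xiap holds caspases in check. Histone deacetylase inhibitors are known for raising several of these genes in tumour cells.

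Values of the clone set were RPKM and those of the shRNA set CPM, so levels were compared between genes only in RPKM, and the sets were never compared with each other. Depth is unknown for the RPKM libraries. The 12 CPM libraries held 16086082 to 24977595 reads, at which a value of 0 allows up to 3 reads, 0.120 to 0.186 CPM. Differences are log2 values, the first named group minus the second, on the scale of value + 0.5, with the standard error (SE) of the fit. Adjusted p-values come from limma over all tested genes, 11717 in RPKM and 12808 in CPM, with a threshold of 0.05, and only past it is a gene called higher or lower. The 8 mesenchymal markers summed to 1034 to 1570.3 RPKM in the clones and 2905 and 3012 RPKM in Py2T LT. Vim and Fn1 made up most of each sum. Vim, Fn1, Zeb1, Col1a1 and Col1a2 averaged lower in each clone, while Cdh2, Prrx1 and Twist1 averaged higher. Cdh2 averaged 40.6 to 54.7 RPKM in the clones and 1.84 RPKM in Py2T LT. The luminal keratins Krt8 and Krt18 were also abundant in every library. Group means of other luminal markers were 28.9 to 65.9 RPKM for Cldn3 and 6.71 to 32.3 RPKM for Epcam. They were at most 5.14 RPKM for Cdh1, 3.18 for Esr1, 0.203 for Elf5 and 0.0470 for Krt19. Markers of endothelium and adipocytes were near 0, at most 1.44 RPKM and 1.12 CPM in sum. Exons of Rrm2b, Bid, Bad, Bak1, Bcl2 and Casp9 overlap a gene on the other strand, and those of Bax one on the same strand; the kit marks strand, but its use in counting is not given in the sources used here, so reads in the overlaps cannot be told apart. In these bulk libraries fewer cells of a type and less RNA per cell cannot be told apart.

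One library stood apart, the one labelled shControl replicate 1, grown without CI994. Its log2 difference from replicate 2 depended on GC content: its median in the 10% of genes highest in GC minus that in the 10% lowest in GC was -1.77, against -0.391 to -0.0157 in the other 5 CPM pairs. It held 5.40 CPM of Mbd3, against 66.5 CPM in replicate 2, which is below both shMbd3 libraries (22.1 and 27.7 CPM). Among the members, Bax had 23.0 CPM in replicate 1 and 99.5 CPM in replicate 2, Bad had 4.07 and 23.1 CPM, and Bak1 had 28.6 and 53.4 CPM. Ccng1 went the other way, with 709 and 405 CPM. Every comparison with untreated shControl therefore rests on a pair whose libraries differ, and its wide spread also enters the error of the other 10 CPM libraries, so counts are given with and without this library.

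**Figure D1:**
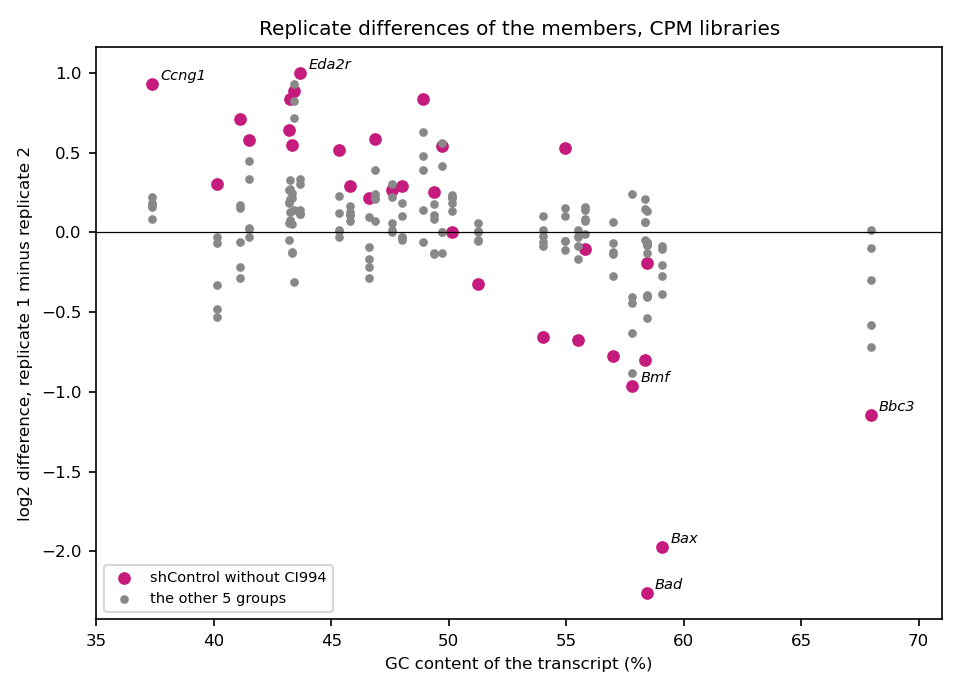
Log2 difference of replicate 1 minus replicate 2 for each tested member (y axis) against the GC content of its transcript in percent (x axis), for untreated shControl and the other 5 CPM groups, 1 point per member and group. The untreated shControl pair runs from Eda2r at 1.00 to Bad at -2.26, and the other groups lie between -0.88 and 0.93.

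The targets of the shRNAs were checked first. Mbd3 had 22.1 and 27.7 CPM in shMbd3 cells and 5.40 and 66.5 CPM in shControl cells. The reported fit thus called no Mbd3 difference without CI994 (0.29, limma adjusted p = 0.80). Without the library that stands apart the difference was -1.41, resting on 1 untreated shControl library. With CI994 Mbd3 had 16.6 and 21.9 CPM in shMbd3 cells and 53.6 and 67.7 CPM in shControl cells. The shMbd3 libraries were thus below all libraries of the other lines except the one that stands apart, and the difference within CI994 was -1.67 ± 0.81 (adjusted p = 0.20 with limma; adjusted p = 1.0e-05 without that library). Tet2 had 8.41 and 7.97 CPM in shTet2 cells and 15.1 and 13.8 CPM in shControl cells, a difference of -0.76 ± 0.18 (adjusted p = 0.018). With CI994 it had 6.30 and 7.42 CPM in shTet2 cells and 8.13 and 11.4 CPM in shControl cells. That difference did not pass the test with limma (-0.47 ± 0.18, adjusted p = 0.13). In shControl cells Tet2 was itself lower with CI994 than without it (-0.60, adjusted p = 0.036). Between shTet2 and shMbd3 cells it was not called without CI994 (-0.39, adjusted p = 0.18). With CI994 it was lower in shTet2 than in shMbd3 cells (-0.63, adjusted p = 0.038).

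Promoter sequences of RefSeq (GRCm38.p6, 250 bases before to 50 after a gene's start) were available for 26 of the 33 members. They were searched on both strands for the p53 consensus half-site, a motif of 10 letters, and 7 of the 26 members (26.9%) held at least 1 match in a window, against 9.55% of the 27025 genes with a window. Some genes have several windows, 1 for each annotated start, and by window the share was 19.5% of the 41 member windows and 8.36% of all 32851. A pair of half-sites with a spacer of at most 13 bases, the form p53 binds as a tetramer, was in none of the member windows and in 0.0731% of all windows. A match describes letters only and is not evidence of binding. The windows of Ccng1, Bmf and Bax are shown because these genes carry much of what follows: Ccng1 and Bmf were higher in every clone, and Bax was among the members that differed most between the shControl libraries. Each runs 5′ to 3′ on the gene's own strand, with the matching half-site in capitals.
Ccng1 (chr11:40755237-40755536, minus strand): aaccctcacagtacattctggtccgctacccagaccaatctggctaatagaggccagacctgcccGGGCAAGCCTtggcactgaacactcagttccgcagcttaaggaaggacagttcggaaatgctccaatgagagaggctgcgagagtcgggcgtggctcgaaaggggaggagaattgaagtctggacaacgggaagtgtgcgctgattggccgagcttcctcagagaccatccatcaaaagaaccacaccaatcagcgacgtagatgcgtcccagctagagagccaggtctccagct
Bmf (chr2:118544538-118544837, minus strand): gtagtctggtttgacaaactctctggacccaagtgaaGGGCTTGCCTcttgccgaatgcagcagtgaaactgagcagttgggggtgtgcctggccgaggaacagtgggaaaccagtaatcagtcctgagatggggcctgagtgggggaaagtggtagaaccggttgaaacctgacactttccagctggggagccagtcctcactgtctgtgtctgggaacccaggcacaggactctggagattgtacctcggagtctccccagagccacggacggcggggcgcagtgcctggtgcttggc
Bax (chr7:45466849-45467148, minus strand): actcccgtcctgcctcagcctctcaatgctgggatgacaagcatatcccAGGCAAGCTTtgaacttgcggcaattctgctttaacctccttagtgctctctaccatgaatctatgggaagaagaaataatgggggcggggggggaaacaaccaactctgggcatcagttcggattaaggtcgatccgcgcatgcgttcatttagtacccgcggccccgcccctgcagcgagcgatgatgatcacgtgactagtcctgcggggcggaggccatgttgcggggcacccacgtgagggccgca
The capitals begin 185 bases before the annotated start of the window shown in Ccng1, 213 before in Bmf and 201 before in Bax. The Bmf window belongs to an internal start and lies inside the gene (chr2:118528757-118549686), and the windows at its other starts, the outermost one included, held no half-site. Trp53, Aen, Polk and Sesn1 held the other matches.

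The first question was how the p53 and apoptosis genes stood in the M clones relative to Py2T LT. Of the 31 tested members, 15 were higher and 8 lower in the mean of the 3 clones, 74.2%, while 65.0% of all tested genes were called, 32.4% higher and 32.6% lower. M1 had 16 members higher and 8 lower (77.4%), where 60.8% of all tested genes were called, 30.7% higher and 30.2% lower. M2 had 17 higher and 8 lower (80.6%), where 57.4% of all tested genes were called, 28.2% higher and 29.2% lower. M3 had 15 higher and 8 lower (74.2%), where 59.4% of all tested genes were called, 29.9% higher and 29.5% lower. Most genes thus differed, and the share of members was above that of all genes in each comparison; whether that gap exceeds chance was not tested. The median difference of the members was 0.36 in the mean of the clones, and that of all tested genes was within 0.01 of 0 in each clone. These comparisons share the Py2T LT libraries. TGF-beta treatment is listed for Py2T LT and not for the clones, so clone and treatment cannot be told apart here.

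**Figure D2:**
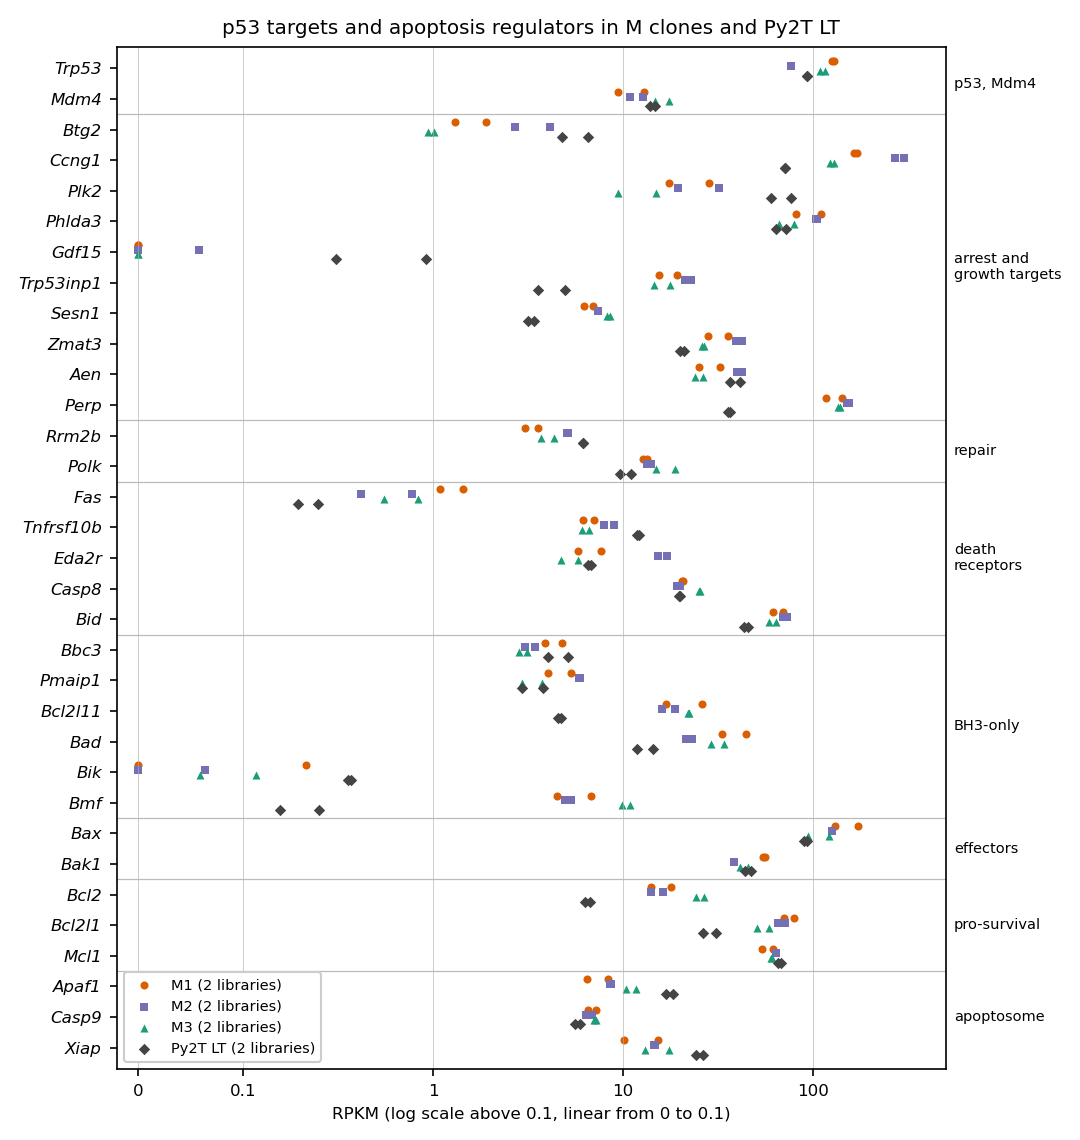
RPKM of the 33 members in every library of M1, M2, M3 and Py2T LT, 2 points per group, on a log axis that is linear below 0.1, with members grouped by role. Bmf, Bcl2l11, Perp, Trp53inp1 and Bcl2 lie higher in all 6 clone libraries than in both Py2T LT libraries, and Plk2, Btg2, Apaf1 and Xiap lie lower.

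Trp53 itself was abundant and differed little. It had 128 and 126 RPKM in M1, 77.0 and 76.1 RPKM in M2, 109 and 115 RPKM in M3, and 92.6 and 92.9 RPKM in Py2T LT. M1 was higher (0.42 ± 0.09, adjusted p = 0.0028), M3 was higher (0.26 ± 0.09, adjusted p = 0.027) and M2 was lower (-0.30 ± 0.09, adjusted p = 0.016). The calls in M2 and M3 were lost without any 1 of 4 and of 5 libraries, with adjusted p up to 0.11 and 0.12. Mdm4 had 9.36 to 17.5 RPKM in the clones and 13.9 and 14.7 RPKM in Py2T LT, and it was called in none of the clones. Some other genes of the network differed far more. Mdm2, the main negative regulator of p53 and itself a p53 target, had 36.4 to 54.2 RPKM in the 6 clone libraries and 669.6 and 664 RPKM in Py2T LT (-3.83 ± 0.09 in the mean of the clones, adjusted p = 4.4e-09). Cdkn2a, which encodes p16 and the Mdm2 inhibitor Arf, was at most 0.0533 RPKM in the clones and 65.5 and 53.5 RPKM in Py2T LT, and it had 0 reads in all 12 shRNA libraries. Cdkn1a, the p53 target p21, had 66.9 to 106 RPKM in the clones and 82.2 and 65.8 RPKM in Py2T LT; it was called in M1 (0.40 ± 0.12, adjusted p = 0.019, but 0.15 without Py2T LT replicate 2) and in neither M2 nor M3.

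Targets of arrest and growth control split into a group that was higher and a group that was lower in the clones. Perp (chr10:18845071-18857073), a p53 target found in desmosomes, had 143 and 117 RPKM in M1, 154 and 151 RPKM in M2, 138 and 135 RPKM in M3, and 35.6 and 36.4 RPKM in Py2T LT. All clone libraries were far above both Py2T LT libraries, and the mean of the clones was 3.77-fold higher on the offset scale (1.92 ± 0.09, adjusted p = 2.0e-07). Trp53inp1, a stress protein that aids p53, had 15.4 and 19.1 RPKM in M1, 22.8 and 21.2 in M2, 17.6 and 14.5 in M3, and 3.56 and 4.95 RPKM in Py2T LT (1.97 ± 0.15, adjusted p = 4.8e-06). Ccng1, which encodes cyclin G1, had 165 and 171 RPKM in M1, 269.9 and 299.9 in M2, 129.6 and 122 in M3, and 71.5 and 71.3 RPKM in Py2T LT (1.32 ± 0.08, adjusted p = 1.2e-06). The clones did not overlap in Ccng1, with M2 highest and M3 lowest. Sesn1, a sestrin that restrains mTORC1, had 6.26 to 8.49 RPKM in the clones and 3.17 and 3.41 RPKM in Py2T LT (1.04 ± 0.09, adjusted p = 1.6e-05). Zmat3, an RNA-binding zinc finger protein, was higher by 0.63 ± 0.10 (adjusted p = 0.00074). Phlda3, which restrains Akt, was higher by 0.38 ± 0.12 (adjusted p = 0.021), with overlapping groups, and the call was lost without Py2T LT replicate 1 or 2 (adjusted p = 0.058 and 0.17).

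Plk2, a polo-like kinase, and Btg2, an anti-proliferative factor, went the other way. Plk2 (chr13:110395044-110400844) had 28.2 and 17.5 RPKM in M1, 32.0 and 19.4 RPKM in M2, 14.9 and 9.43 RPKM in M3, and 76.3 and 60.1 RPKM in Py2T LT. No clone library reached the lower Py2T LT library, and the mean of the clones was lower by 1.85 on the log2 scale (-1.85 ± 0.29, adjusted p = 0.0017). Btg2 had 1.89 and 1.31 RPKM in M1, 4.10 and 2.69 in M2, 0.945 and 1.01 in M3, and 6.51 and 4.77 RPKM in Py2T LT (-1.44 ± 0.18, adjusted p = 0.00013). Aen, an apoptosis-enhancing nuclease, was lower in M1 (-0.48 ± 0.13, adjusted p = 0.014) and M3 (-0.63 ± 0.13, adjusted p = 0.0034), and in M2 it had 39.9 and 42.5 RPKM against 41.2 and 36.6 RPKM in Py2T LT, with no call. Aen in M1 lost its call without Py2T LT replicate 1 (adjusted p = 0.095). Gdf15 was listed at 0 in 5 of the 6 clone libraries, with 0.0577 RPKM in the sixth, and had 0.912 and 0.309 RPKM in Py2T LT. Rrm2b, the p53-induced subunit of ribonucleotide reductase, was lower in the mean of the clones (-0.56 ± 0.11, adjusted p = 0.0017). Polk, a translesion polymerase, was higher (0.44 ± 0.11, adjusted p = 0.0074), a call lost without Py2T LT replicate 1 (adjusted p = 0.096).

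**Figure D3:**
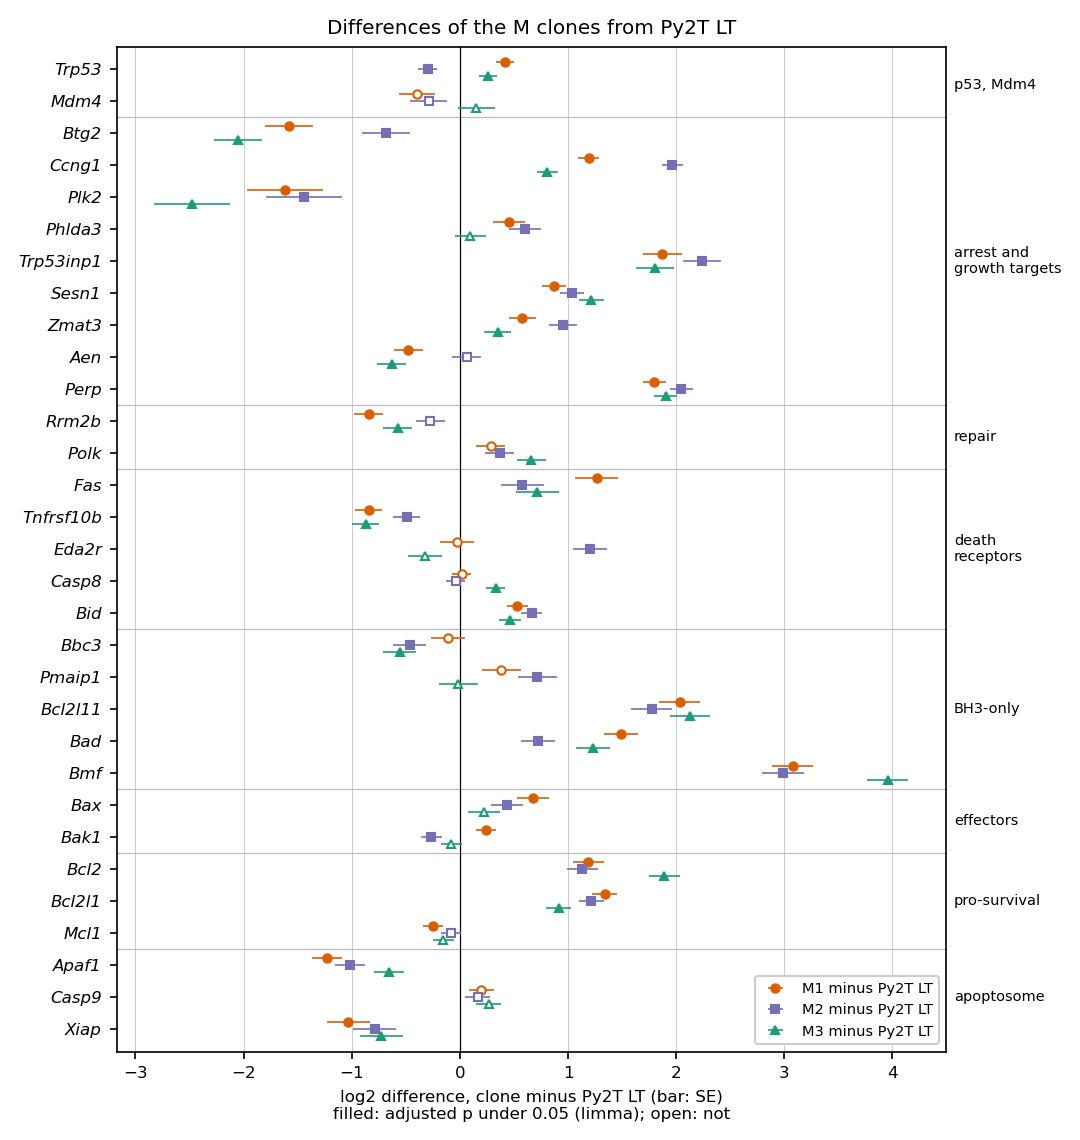
Log2 difference of M1, M2 and M3 from Py2T LT with its SE (x axis) for the 31 tested members by role (y axis), filled where adjusted p was under 0.05. The widest differences are Bmf at 3.96 in M3 and Plk2 at -2.47 in M3, and Eda2r is filled in M2 alone.

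Death receptors did not move together, and Fas was the lowest of them. Fas had 1.44 and 1.08 RPKM in M1, 0.417 and 0.773 RPKM in M2, 0.549 and 0.834 RPKM in M3, and 0.194 and 0.248 RPKM in Py2T LT. It was higher in the mean of the clones (0.85 ± 0.16, adjusted p = 0.0016), though its level was at most 1.44 RPKM and the offset of 0.5 compresses the difference. Tnfrsf10b, the mouse TRAIL receptor, had 6.07 to 8.99 RPKM in the clones and 11.8 and 12.1 RPKM in Py2T LT (-0.74 ± 0.10, adjusted p = 0.00021). Eda2r, the receptor of ectodysplasin A2, had 15.3 and 17.0 RPKM in M2 and 6.74 and 6.50 RPKM in Py2T LT (1.20 ± 0.16, adjusted p = 0.00024), and it was not called in M1 or M3. Casp8, the caspase these receptors recruit, had 25.4 and 25.0 RPKM in M3 and 19.3 to 20.8 RPKM in the libraries of M1, M2 and Py2T LT. Bid, which Casp8 cleaves to reach the mitochondria, was higher by 0.55 ± 0.08 (adjusted p = 0.00033).

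Bid is a BH3-only protein too, grouped above with the death receptors. Among the other BH3-only genes 3 were higher in the mean of the clones and 1 was lower. Bmf (chr2:118528757-118549686), whose protein binds pro-survival Bcl2 proteins, had 4.47 and 6.81 RPKM in M1, 5.30 and 4.93 RPKM in M2, 9.87 and 10.9 RPKM in M3, and 0.251 and 0.157 RPKM in Py2T LT. The clones averaged 7.04 RPKM and Py2T LT 0.204 RPKM, a ratio of 34.5, and the test gave 3.34 ± 0.16 (adjusted p = 2.5e-07), a fold of 10.1 that the offset of 0.5 compresses because it exceeds the Py2T LT level. On that scale it was the widest difference of any member in this comparison. Bcl2l11 (chr2:128126038-128162547), the gene of Bim, had 16.8 and 26.2 RPKM in M1, 16.0 and 18.7 in M2, 22.2 and 21.9 in M3, and 4.72 and 4.55 RPKM in Py2T LT. Its level was 3.94-fold higher on the offset scale (1.98 ± 0.15, adjusted p = 6.8e-06). Bad had 21.4 to 44.6 RPKM in the clones and 14.4 and 11.8 RPKM in Py2T LT (1.15 ± 0.13, adjusted p = 6.0e-05). The direct p53 targets of this class did not follow. Bbc3, the gene of Puma, had 2.81 to 4.76 RPKM in the clones and 5.15 and 4.04 RPKM in Py2T LT, a lower level (-0.38 ± 0.13, adjusted p = 0.028) with overlapping groups, and the call was lost without Py2T LT replicate 1 (adjusted p = 0.27), M2 replicate 2 (0.064) or M3 replicate 2 (0.058). Pmaip1, the gene of Noxa, was higher in M2 alone among the called comparisons (0.72 ± 0.18, adjusted p = 0.0086, but 0.075 without Py2T LT replicate 1). Bik was at most 0.214 RPKM in the clones and had 0.370 and 0.355 RPKM in Py2T LT.

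Of the pore-forming effectors, Bax had 94.2 to 171 RPKM in the clones and 93.4 and 89.1 RPKM in Py2T LT (0.45 ± 0.12, adjusted p = 0.011), a call lost without Py2T LT replicate 1 or 2 (adjusted p = 0.063 and 0.087). Bak1 was higher in M1 (0.24 ± 0.09, adjusted p = 0.049) and lower in M2 (-0.26 ± 0.09, adjusted p = 0.039), and both calls were lost without any 1 of 7 and of 4 libraries, with adjusted p up to 0.22 and 0.19. Both pro-survival genes that were called in the mean of the clones were higher. Bcl2 had 14.0 and 17.8 RPKM in M1, 16.2 and 13.9 RPKM in M2, 26.8 and 24.3 RPKM in M3, and 6.65 and 6.30 RPKM in Py2T LT (1.41 ± 0.11, adjusted p = 9.2e-06). Bcl2l1, whose main product is Bcl-xL, had 50.6 to 79.1 RPKM in the clones and 30.9 and 26.4 RPKM in Py2T LT (1.16 ± 0.10, adjusted p = 9.9e-06). Values per gene cannot tell its long and short isoforms apart. Mcl1 was about as abundant as Bcl2l1 in the clones but not in Py2T LT, at 53.7 to 64.1 RPKM in the clones and 68.0 and 65.3 RPKM in Py2T LT, and was not called in the mean of the clones. Downstream of the mitochondria, Apaf1 had 6.47 to 11.7 RPKM in the clones and 16.9 and 18.2 RPKM in Py2T LT (-0.97 ± 0.11, adjusted p = 9.6e-05). Xiap had 10.1 to 17.4 RPKM in the clones and 24.2 and 26.2 RPKM in Py2T LT (-0.85 ± 0.16, adjusted p = 0.0017). Both the scaffold of the apoptosome and a caspase inhibitor were thus lower, and Casp9 between them was not called.

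Outside the members, 48 of 50 other p53 network genes were tested and 16 were higher and 17 lower in the mean of the clones (68.8%). Of 46 other apoptosis genes 37 were tested, and 12 were higher and 12 lower (64.9%). Both shares are near the 65.0% of all genes. Igfbp3, an IGF-binding p53 target, averaged 3.52 RPKM in the clones and 148 RPKM in Py2T LT. Ephx1, an epoxide hydrolase, averaged 73.9 RPKM in the clones and 5.53 RPKM in Py2T LT. Dapk1, a death-associated kinase, averaged 15.9 and 2.11 RPKM, and Casp1, an inflammatory caspase, 21.0 and 3.94 RPKM.

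The clones also differed from each other. M2 against M1 gave 5 higher and 4 lower members, 29.0% of those tested, where 23.1% of all tested genes were called, 10.6% higher and 12.5% lower. M2 against M3 gave 7 higher and 4 lower, 35.5%, where 20.1% of all tested genes were called, 9.55% higher and 10.6% lower. M1 against M3 gave 0 higher and 2 lower, 6.45%, where 5.03% of all tested genes were called, 1.95% higher and 3.07% lower. These counts depend on single libraries. M2 against M1 gave 4 without M2 replicate 1 and 5 without M2 replicate 2. M2 against M3 gave 7 and 4 without these libraries and 6 without either M3 library. M1 against M3 gave 13 without M1 replicate 2 and 0 with limma when any other library was left out, where 8 to 15 members had an unadjusted p under 0.05, so the 3 counts do not rank the pairs. Ccng1 was higher in M2 than in M1 (0.77 ± 0.10, adjusted p = 0.0011) and than in M3 (1.16 ± 0.10, adjusted p = 0.00011). Eda2r was higher in M2 by 1.23 ± 0.16 against M1 (adjusted p = 0.0013) and by 1.52 ± 0.16 against M3 (adjusted p = 0.00039). Both are p53 targets, but p53 protein and its activity were not measured here. Trp53 RNA was lower in M2, by -0.72 ± 0.09 against M1 (adjusted p = 0.00089) and -0.56 ± 0.09 against M3 (adjusted p = 0.0030). These calls held without any 1 library, as did Btg2 in M2 against M3 (1.37 ± 0.22, adjusted p = 0.0037). Bcl2 and Bmf were lower in M1 than in M3 (-0.70 ± 0.14 and -0.88 ± 0.19, adjusted p = 0.029 and 0.039), but each call was lost without any 1 of 7 libraries, with adjusted p up to 0.21 and 0.19.

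The next question was how M3 cells with shTet2 or shMbd3 differed from those with shControl. The comparisons within CI994 come first, because both their groups are free of the library that stands apart. With CI994, shTet2 cells had 6 members higher and 2 lower than shControl cells (25.8%), where 16.0% of all tested genes were called, 6.69% higher and 9.28% lower. Cells with shMbd3 had 8 higher and 2 lower (32.3%), where 19.1% of all tested genes were called, 8.11% higher and 11.0% lower. Without the outlying library the counts were 11 higher and 8 lower for shTet2 (40.5% of all genes called) and 13 higher and 2 lower for shMbd3 (44.1% of all genes called), and all 8 and all 10 calls of the full set kept their direction and call. These 2 comparisons share the shControl CI994 libraries. The 8 mesenchymal markers summed to 7799 and 8926 CPM in shTet2 cells with CI994, 4175 and 4585 CPM in shMbd3 cells and 8295 and 8737 CPM in shControl cells. The 8 luminal markers summed to 4221 and 4232 CPM in shTet2 cells, 2923 and 2989 CPM in shMbd3 cells and 3555 and 3561 CPM in shControl cells. The part of these markers in the member results was not tested.

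**Figure D4:**
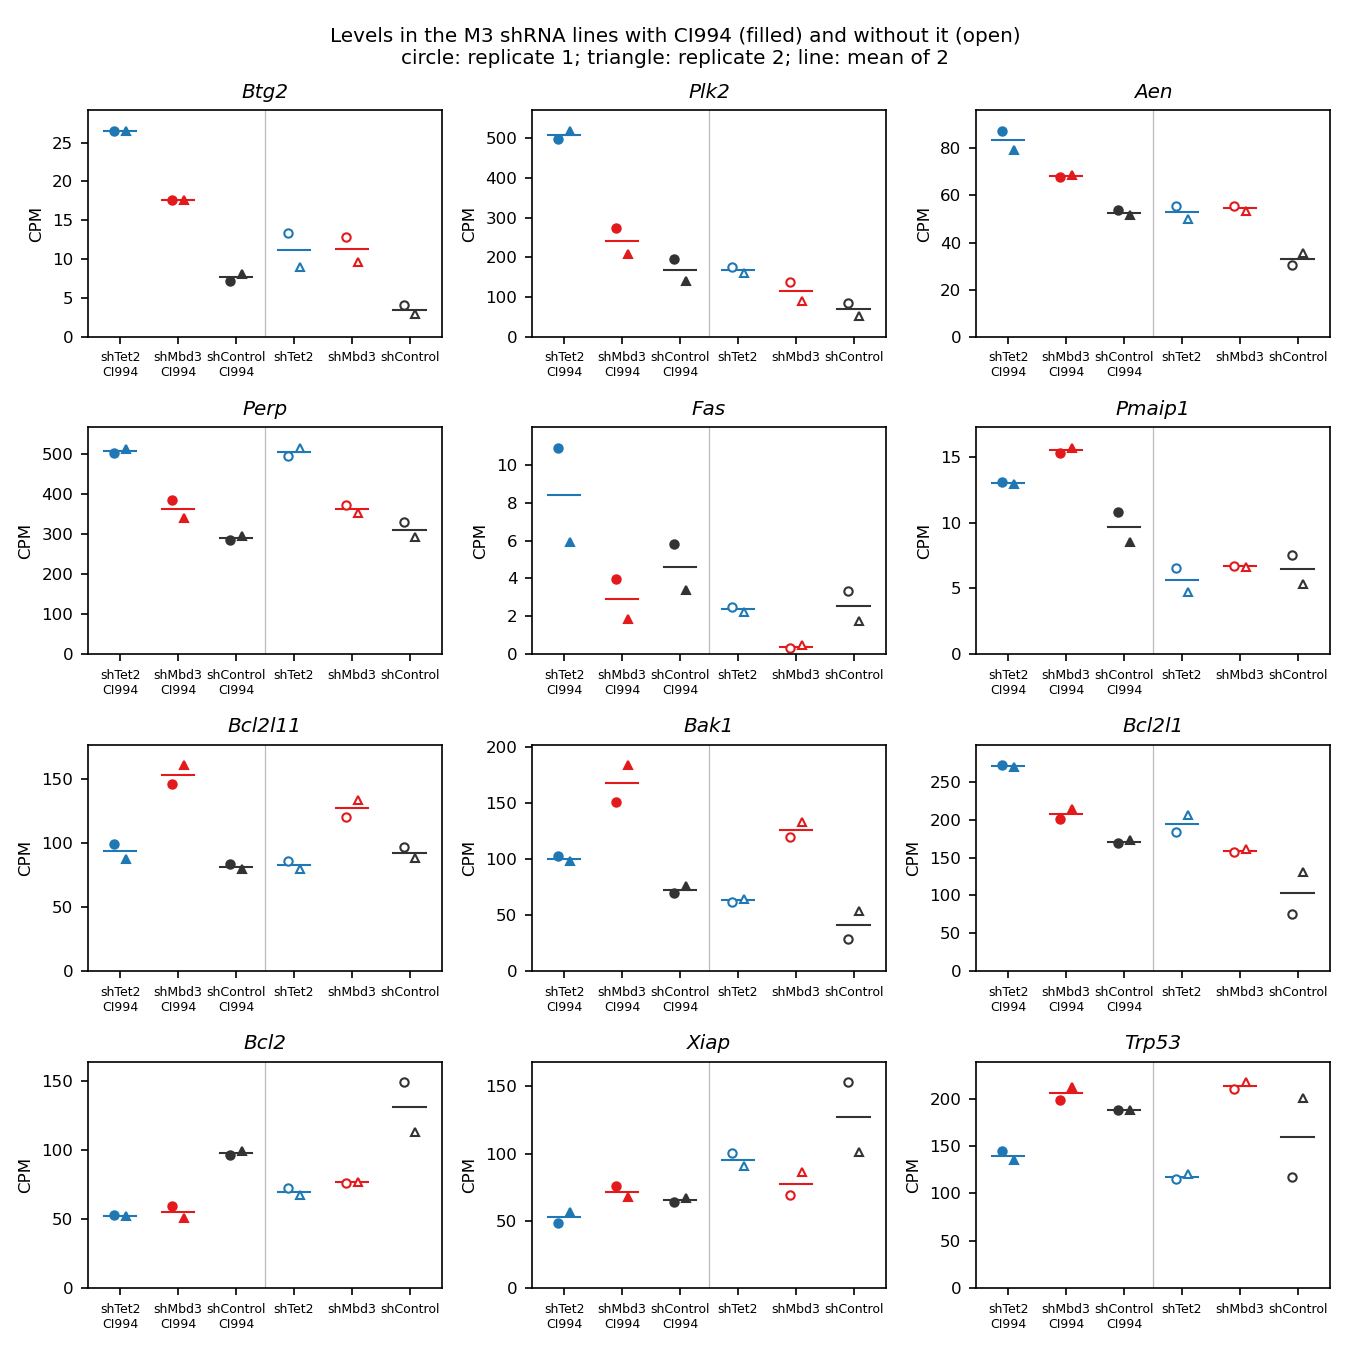
CPM of 12 members in the 6 M3 groups, with CI994 (filled, left) and without it (open, right), replicate 1 as a circle, replicate 2 as a triangle and the mean as a line; each y axis starts at 0. Btg2 and Plk2 are highest in shTet2 cells with CI994, Bcl2l11 and Bak1 in shMbd3 cells, and the untreated shControl libraries are far apart in Bak1, Bcl2l1, Xiap and Trp53.

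In shTet2 cells Btg2 and Plk2, both arrest targets, had the widest differences within CI994. Btg2 had 26.5 and 26.5 CPM in shTet2 cells and 7.25 and 8.05 CPM in shControl cells (1.72 ± 0.24, adjusted p = 0.0013). Plk2 had 497 and 519 CPM in shTet2 cells and 195 and 141 CPM in shControl cells (1.61 ± 0.30, adjusted p = 0.0060, but 0.062 without shControl CI994 replicate 2). Perp had 501 and 512 CPM in shTet2 cells and 285 and 294 CPM in shControl cells (0.80 ± 0.12, adjusted p = 0.00165). The groups did not overlap in these genes; the libraries of each group were close for Btg2 and Perp, while the shControl libraries were farther apart for Plk2. Aen had 87.4 and 79.3 CPM in shTet2 cells and 53.7 and 51.6 CPM in shControl cells (0.65 ± 0.11, adjusted p = 0.0031). Bcl2 was lower, with 52.8 and 52.4 CPM in shTet2 cells and 96.4 and 99.4 CPM in shControl cells (-0.90 ± 0.16, adjusted p = 0.0049). Btg2, Perp, Aen and Bcl2 kept their call without any 1 library. Bbc3 (1.45 ± 0.38), Bcl2l1 (0.65 ± 0.18) and Casp9 (-0.47 ± 0.12) were also called, with adjusted p of 0.030, 0.041 and 0.027, but lost the call without any 1 of 6, 10 and 8 libraries, with adjusted p up to 0.17, 0.17 and 0.19.

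The members called in shMbd3 cells included both mitochondrial death genes and targets of the arrest and growth class. Bcl2l11 had 146 and 161 CPM in shMbd3 cells with CI994 and 83.4 and 79.3 CPM in shControl cells (0.87 ± 0.12, adjusted p = 0.0011), and it kept its call without any 1 library. Bak1 had 151 and 184 CPM in shMbd3 cells and 69.3 and 76.3 CPM in shControl cells (1.16 ± 0.21, adjusted p = 0.0053). Bcl2 had 59.5 and 50.9 CPM in shMbd3 cells and 96.4 and 99.4 CPM in shControl cells (-0.86 ± 0.16, adjusted p = 0.0052). Bak1 and Bcl2 each missed the threshold only without shMbd3 CI994 replicate 2, both with adjusted p = 0.052. The 8 higher members thus included Bcl2l11, Bmf, Bid, Bak1 and Apaf1 of the mitochondrial route, beside 3 members of the arrest and growth class. Bmf had 84.8 and 116 CPM in shMbd3 cells and 33.9 and 45.4 CPM in shControl cells (1.29 ± 0.38, adjusted p = 0.044). Ccng1 had 1005 and 867 CPM in shMbd3 cells and 487 and 433 CPM in shControl cells (0.99 ± 0.25, adjusted p = 0.022). Trp53inp1 (1.01 ± 0.21, adjusted p = 0.010), Btg2 (1.12 ± 0.24, adjusted p = 0.011), Bid (0.46 ± 0.11, adjusted p = 0.020) and Apaf1 (0.45 ± 0.12, adjusted p = 0.032) were higher. Sesn1 was lower (-0.65 ± 0.15, adjusted p = 0.014). These 7 calls were lost without any 1 of 3 to 10 libraries, with adjusted p up to 0.24, and all 7 held without the library that stands apart, with adjusted p of at most 0.0037.

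The knockdowns were also set against each other, a comparison with no shControl library in it. With CI994, shTet2 cells had 3 members higher and 5 lower than shMbd3 cells (25.8%), where 21.9% of all tested genes were called, 11.1% higher and 10.8% lower, a share near that of all genes. Bcl2l11 had 99.3 and 87.9 CPM in shTet2 cells and 146 and 161 CPM in shMbd3 cells (-0.68 ± 0.12, adjusted p = 0.0044) and kept its call without any 1 library. Perp was higher in shTet2 cells (0.52 ± 0.12, adjusted p = 0.013), and so were Plk2 (1.11 ± 0.30, adjusted p = 0.027) and Fas (1.42 ± 0.42, adjusted p = 0.041). Mdm4, Casp8, Bak1 and Apaf1 were lower by -0.65, -0.69, -0.70 and -0.44. These other 7 calls were lost without any 1 of 3 to 10 libraries, with adjusted p up to 0.26, and held without the outlying library, at which the count was 9 higher and 12 lower (46.8% of all genes called). Without CI994 the count was 2 higher and 4 lower (19.4%), where 19.2% of all tested genes were called, 9.55% higher and 9.60% lower. With no scaling factor 39.2% of all called genes were higher there, against 49.9% with TMM. Perp had 494 and 514 CPM in shTet2 cells and 373 and 353 CPM in shMbd3 cells (0.57 ± 0.12, adjusted p = 0.0098). Trp53 had 115 and 120.5 CPM in shTet2 cells and 210.5 and 217 CPM in shMbd3 cells (-0.77 ± 0.18, adjusted p = 0.016). Fas had 2.50 and 2.24 CPM in shTet2 cells and 0.292 and 0.491 CPM in shMbd3 cells (1.76 ± 0.42, adjusted p = 0.019). The groups did not overlap in these genes; each of the 6 calls was lost without any 1 of 3 to 10 libraries, with adjusted p up to 0.20, and each held without the outlying library, at which the count was 8 higher and 9 lower (45.2% of all genes called).

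Without CI994 and against shControl, shTet2 cells had 8 members higher and 3 lower (35.5%). Of all tested genes 23.4% were called there, 10.5% higher and 12.9% lower. With no scaling factor 36.4% of all genes called in this comparison were higher, against 44.7% with TMM. Cells with shMbd3 had 11 higher and 5 lower (51.6%), where 32.2% of all tested genes were called, 15.3% higher and 16.9% lower. With only the 2 groups compared in the fit, limma called 0 members in either, 7 and 9 members having an unadjusted p under 0.05. On all 12 libraries edgeR called 11 and 16 and DESeq2 12 and 16. With the GC trend removed, 11 of the 11 limma calls for shTet2 and 11 of the 16 for shMbd3 were kept in their direction. Not all limma calls of the full set were kept without the outlying library, in either comparison. Without the outlying library limma called 10 higher and 3 lower (32.9% of all genes called) and 12 higher and 5 lower (34.4% of all genes called). The mesenchymal markers summed to 2951 and 3066 CPM in shTet2 cells, 2819 and 3122 CPM in shMbd3 cells and 4393 and 6123 CPM in shControl cells, and the luminal ones to 3352 and 3805.5 CPM in shTet2 cells, 2396 and 2467 CPM in shMbd3 cells and 989 and 2494 CPM in shControl cells. Btg2 had 13.4 and 8.97 CPM in shTet2 cells, 12.9 and 9.68 CPM in shMbd3 cells and 4.07 and 2.87 CPM in shControl cells. It was higher with both shRNAs, by 1.58 ± 0.24 (adjusted p = 0.0018) and 1.51 ± 0.24 (adjusted p = 0.0021). Aen had 55.6 and 49.9 CPM in shTet2 cells, 55.6 and 53.4 CPM in shMbd3 cells and 30.5 and 35.7 CPM in shControl cells (0.69 ± 0.11 and 0.65 ± 0.11, adjusted p = 0.0018 and 0.0024). Bcl2 had 72.9 and 67.3 CPM in shTet2 cells, 76.6 and 77.4 CPM in shMbd3 cells and 149 and 113 CPM in shControl cells (-0.86 ± 0.16 and -0.81 ± 0.16, adjusted p = 0.0049 and 0.0058). In these genes both shControl libraries lay on the same side of the knockdown libraries. Bak1 had 119 and 133 CPM in shMbd3 cells and 28.6 and 53.4 CPM in shControl cells (1.62 ± 0.21, adjusted p = 0.00077; 1.23 and adjusted p = 2.4e-05 without the outlying library). Perp was higher in shTet2 cells (0.73 ± 0.12, adjusted p = 0.0023) and Tnfrsf10b in both, by 0.94 ± 0.14 and 0.63 ± 0.14 (adjusted p = 0.0014 and 0.0093). Fas was lower in shMbd3 cells (-1.76 ± 0.42, adjusted p = 0.014, but 0.093 without shMbd3 replicate 1 and 0.054 without shMbd3 replicate 2). Bax and Bad, the genes in which the shControl libraries differed most, were called in neither comparison. Mdm4 was lower in shTet2 cells (-0.68 ± 0.19, adjusted p = 0.033, up to 0.20 without 1 library). Eda2r, Polk and Zmat3, like Bax and Bad, were called in none of the 12 CPM comparisons. Gdf15 had 0 CPM in 11 of the 12 libraries and 0.0622 CPM in the other, and Bik had 0 CPM in 10 and 0.0421 and 0.186 CPM in the shMbd3 CI994 libraries.

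The last question was the response to CI994 in each line. Plk2, Btg2, Aen and Phlda3 of the arrest and growth class, and Pmaip1 and Fas among the death genes, were higher with CI994 in at least 1 line. That class is a grouping by list and includes the apoptosis-enhancing nuclease Aen, so it does not separate arrest from death. With CI994 shTet2 cells had 6 members higher and 2 lower than without it (25.8%), where 24.3% of all tested genes were called, 12.6% higher and 11.7% lower. Cells with shMbd3 had 3 higher and 0 lower (9.68%), where 12.7% of all tested genes were called, 7.58% higher and 5.11% lower. Cells with shControl had 8 higher and 1 lower (29.0%), where 33.6% of all tested genes were called, 17.9% higher and 15.7% lower. These shares are near or below those of all genes, so they are no result about the members as a list. Without the outlying library the counts were 13 higher and 5 lower in shTet2 (57.5% of all genes called), 13 and 1 in shMbd3 (41.8% of all genes called) and 9 and 1 in shControl (29.7% of all genes called).

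Plk2 had 497 and 519 CPM with CI994 and 176 and 161 CPM without it in shTet2 cells (1.52 ± 0.30, adjusted p = 0.0076). It had 273 and 209 CPM with CI994 and 139 and 91.2 CPM without it in shMbd3 cells (1.08 ± 0.30, adjusted p = 0.045), and 195 and 141 CPM with CI994 and 85.9 and 52.0 CPM without it in shControl cells (1.27 ± 0.30, adjusted p = 0.014). In every line both treated libraries were above both untreated ones. Btg2 had 26.5 and 26.5 CPM with CI994 and 13.4 and 8.97 CPM without it in shTet2 cells (1.17 ± 0.24, adjusted p = 0.0094), and it was also higher in shControl cells (1.02 ± 0.24, adjusted p = 0.015). Aen was higher in shTet2 cells (0.59 ± 0.11, adjusted p = 0.0054) and shControl cells (0.63 ± 0.11, adjusted p = 0.0040). Phlda3 had 106 and 91.5 CPM with CI994 and 52.4 and 50.3 CPM without it in shTet2 cells (0.86 ± 0.21, adjusted p = 0.020), and 98.6 and 89.7 CPM with CI994 and 28.9 and 54.9 CPM without it in shControl cells (1.20 ± 0.21, adjusted p = 0.0051). In shMbd3 cells Btg2, Aen and Phlda3 differed by 0.63 ± 0.24, 0.32 ± 0.11 and 0.63 ± 0.21, short of the threshold.

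Pmaip1 had 13.1 and 12.9 CPM with CI994 and 6.52 and 4.68 CPM without it in shTet2 cells (1.10 ± 0.22, adjusted p = 0.0089). In shMbd3 cells it had 15.3 and 15.7 CPM with CI994 and 6.68 and 6.65 CPM without it (1.15 ± 0.22, adjusted p = 0.012). Fas had 10.9 and 5.95 CPM with CI994 and 2.50 and 2.24 CPM without it in shTet2 cells (1.52 ± 0.42, adjusted p = 0.031), and 3.99 and 1.86 CPM with CI994 and 0.292 and 0.491 CPM without it in shMbd3 cells (1.86 ± 0.42, adjusted p = 0.022). In shControl cells Pmaip1 and Fas differed by 0.53 ± 0.22 and 0.73 ± 0.42, with no call. Among the falls, Xiap had 48.8 and 56.9 CPM with CI994 and 100.3 and 90.6 CPM without it in shTet2 cells (-0.92 ± 0.21, adjusted p = 0.015). Xiap in shControl cells had 64.1 and 67.4 CPM with CI994 and 153 and 101 CPM without it (-0.95 ± 0.21, adjusted p = 0.012; -0.60 and adjusted p = 0.0080 without the outlying library). Mcl1, the pro-survival protein that Noxa binds, had 128 and 139 CPM with CI994 and 202 and 211 CPM without it in shTet2 cells (-0.70 ± 0.16, adjusted p = 0.014). In shControl cells Tnfrsf10b (0.77 ± 0.14, adjusted p = 0.0047), Bcl2l1 (0.75 ± 0.18, adjusted p = 0.017), Bak1 (0.86 ± 0.21, adjusted p = 0.018) and Casp9 (0.49 ± 0.12, adjusted p = 0.015) were also higher, but with the GC trend removed Casp9 turned to -0.15 (adjusted p = 0.54). With that trend removed, 7 of the 9 calls in shControl cells were kept in their direction. Aen, Tnfrsf10b and Phlda3 in shControl cells kept their call without any 1 library; all other calls of the CI994 comparisons were lost without at least 1, with adjusted p up to 0.26, and all 20 held without the outlying library. With only the 2 groups compared in the fit, all 9 calls in shControl cells were lost and limma called 0 members, 8 having an unadjusted p under 0.05, while edgeR on all 12 libraries called 11 and DESeq2 13. The same fit gave 18 calls in shTet2 cells and 13 in shMbd3 cells.

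**Figure D5:**
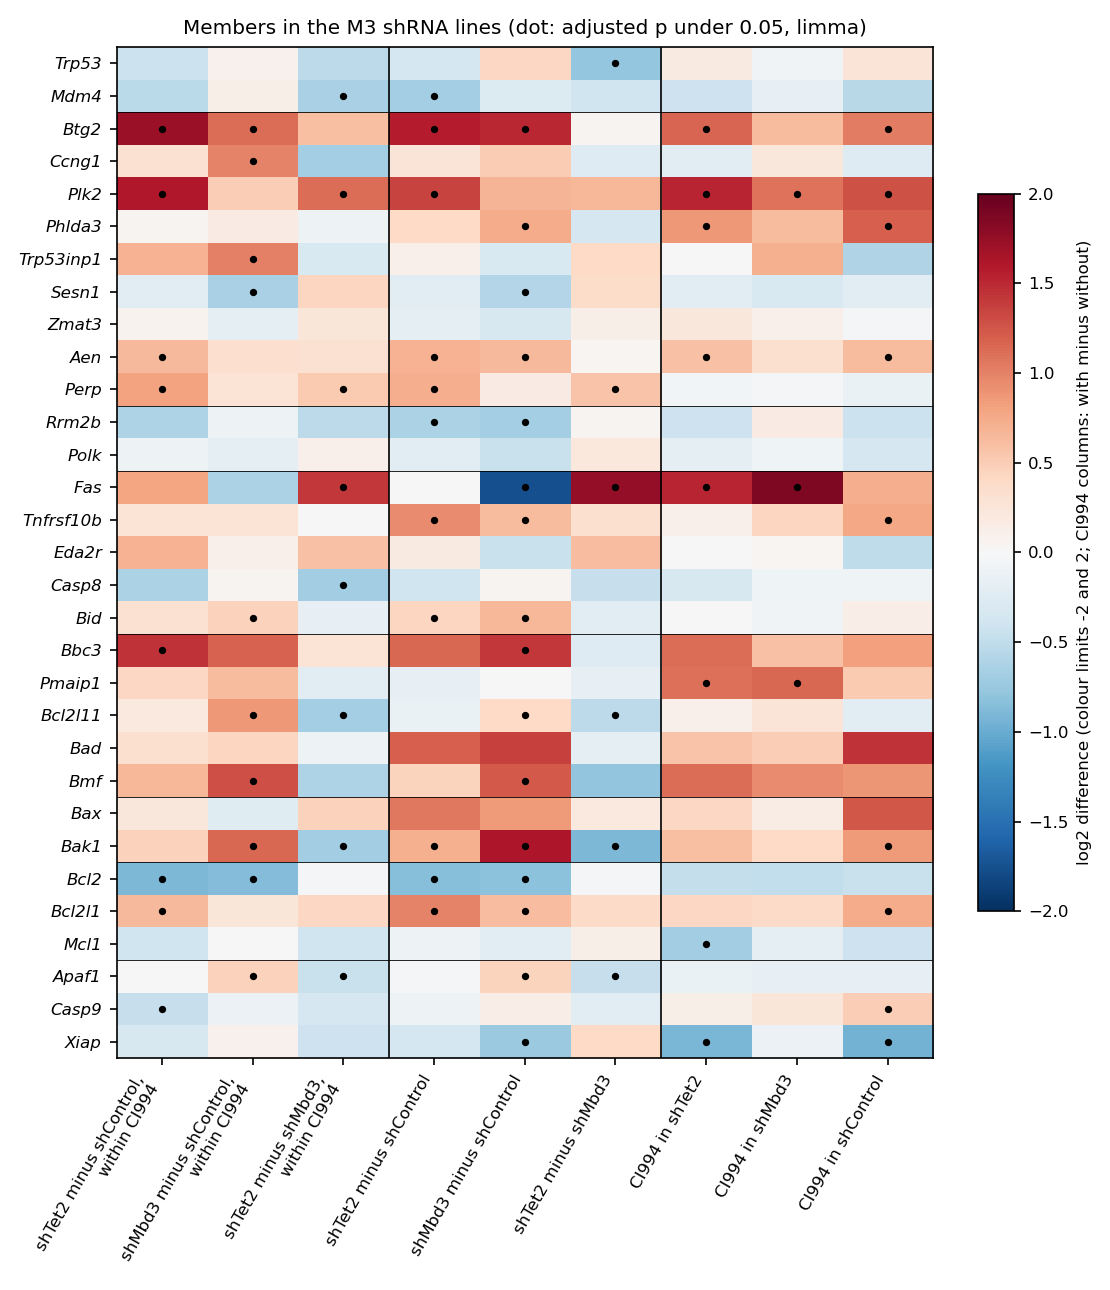
Log2 differences (colour) of the 31 tested members by role (rows) in 9 comparisons of the M3 shRNA lines (columns), a dot marking adjusted p under 0.05. Btg2 reaches 1.72 and Plk2 1.61 for shTet2 within CI994, Fas reaches -1.76 for shMbd3 without CI994, and Bcl2 is blue in all 4 columns that set a knockdown against shControl.

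Whether a knockdown changed the response to CI994 was tested as an interaction. No member passed with limma for Tet2, where 0.687% of all genes did, 0.414% higher and 0.273% lower, or for Mbd3, where 0.0781% did, 0.0390% in each direction. At unadjusted p under 0.05 there were 1 and 3 members, edgeR called 0 and 0, and DESeq2 called 0 and 1. The difference between the CI994 responses of shTet2 and shMbd3 cells, which involves no shControl library, gave 0 members, where 0.0312% of all genes were called, 0.0234% higher and 0.00781% lower, 3 at unadjusted p under 0.05, and 0 with edgeR and with DESeq2. Trp53inp1 had the widest interaction with shMbd3 among the members, 1.31 ± 0.30 (adjusted p = 0.17). It had 151 and 158 CPM with CI994 and 79.1 and 112 CPM without it in shMbd3 cells, and 61.8 and 90.3 CPM with CI994 and 119 and 104 CPM without it in shControl cells. Without the outlying library the counts were 1 for Tet2 (6.39% of all genes called), 0 for Mbd3 (0.726% of all genes called) and 2 between the knockdowns (4.26% of all genes called). A response called in one line and not in another is thus not shown to differ between them.

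Cell type markers moved with CI994 too. The mesenchymal sums given above were higher with CI994 than without it in each line, with no overlap, and so were the luminal ones. The 9 haematopoietic markers summed to 10.4 to 20.8 CPM in the 6 CI994 libraries and 1.75 to 3.87 CPM in the 6 untreated ones. Adgre1 was at 0 in all 12 libraries, and Ptprc, the pan-leukocyte marker, was at most 0.378 CPM; Cd68 had 6.69 to 16.6 CPM with CI994 and 0.918 to 3.12 CPM without it. The 5 basal and myoepithelial markers, mostly Krt14, summed to 26.1 to 108 CPM with CI994 and 3.25 to 23.4 CPM without it. Their part in the member results was not tested.

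Of the other p53 network genes, 47 of 50 were tested in CPM. With CI994, 12 were higher and 4 lower in shTet2 cells (34.0%), 7 higher and 3 lower in shMbd3 cells (21.3%) and 15 higher and 7 lower in shControl cells (46.8%), against the 24.3%, 12.7% and 33.6% of all genes given above. Dram1, a p53-induced lysosomal protein, averaged 4.56 CPM with CI994 and 0.704 CPM without it in shTet2 cells (2.03 ± 0.21, adjusted p = 0.00039). Cdkn1a had 177 and 165 CPM with CI994 and 90.3 and 110.1 CPM without it in shControl cells (0.74 ± 0.12, adjusted p = 0.0038). Limma also called it with CI994 in shMbd3 cells (0.45, adjusted p = 0.042). In shTet2 cells it was not called (0.36, adjusted p = 0.060). Without CI994 Cdkn1a was higher than in shControl cells with shMbd3 (0.94, adjusted p = 0.00070) and shTet2 (0.63, adjusted p = 0.0061). Within CI994 it was higher with shMbd3 (0.65, adjusted p = 0.0057), with no call for shTet2 (0.26, adjusted p = 0.21). Mdm2 stayed within 159 to 207 CPM in all 12 libraries and was called in none of the 12 CPM comparisons. Of 46 other apoptosis genes 39 were tested. Those named here were picked by the size of their difference and give no direction for the list. Dapk1, silenced in many tumours, averaged 3.57 CPM in shTet2 cells and 122 CPM in shControl cells with CI994 (-4.90 ± 0.22, adjusted p = 3.4e-06), and 20.5 CPM in shMbd3 cells (-2.58 ± 0.22, adjusted p = 7.1e-05). Casp1 averaged 3.19 CPM in shTet2 cells and 16.0 CPM in shControl cells with CI994 (-2.17 ± 0.25, adjusted p = 0.00041).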

How the data were processed

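Total RNA libraries were made from 200 ng of RNA with a stranded kit, per the labels' protocols. The authors mapped reads with STAR to mm10, per the submitters' processing notes; the version, the counter and its use of strand are not given in the sources used here. The authors deposited RPKM (reads scaled to transcript length and library size) for 8 libraries and CPM (counts scaled to library size) for 12, by NCBI Gene number, and 1 of the deposited RPKM files also held 7 columns that copy other libraries. CPM values were whole multiples of 1 read within 0.01 reads for every value, so whole read counts were recovered from the deposited CPM. The floor of 3 reads covers counting error only.

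Values were divided by TMM factors (edgeR 4.0.16), filtered (at least 1 RPKM or 0.5 CPM in 2 libraries) and tested as log2(value + 0.5) with limma 3.58.1 in R 4.3.3, trend and robust, group as the only term, once over the 8 and once over the 12 libraries, with Benjamini-Hochberg adjustment over all tested genes. The test was checked on simulated data. Of 19 comparisons, 1 was added after the data were seen: the CI994 response of shTet2 cells against that of shMbd3 cells. Alternatives were other scaling, filters and offsets, a replicate block, removal of a GC trend, only the groups compared, edgeR and DESeq2 1.42.0 on the recovered reads, and each library left out. The labels do not say that a replicate number marks 1 experiment, and the correlation of same-numbered deviations was over 0.1 in 1 of 6 pairs of groups in RPKM and in 14 of 15 in CPM, short of the every pair asked for, so the fits reported have no replicate block. Any member could be named, with Mdm2, Cdkn1a, Tet2 and Mbd3; of 2 lists of other p53 network and apoptosis genes, up to 3 higher and 3 lower called genes a comparison with the largest difference and a mean of at least 1 RPKM or CPM. One gene that this rule names is not reported here. The members and lists were chosen with earlier results of these data known. Promoters come from RefSeq, GRCm38.p6.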

Additional observations from a re-analysis of the deposited data

Results flagged for a closer look

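The clones share Py2T LT as the line they were set against, and the direct test between clones (limma, adjusted p under 0.05) picked out members whose difference from Py2T LT was not the same in 2 clones. Between M2 and M1 these were Eda2r (1.23), Btg2 (0.89), Ccng1 (0.77), Rrm2b (0.57) and Aen (0.54), higher in M2, and Bad (-0.76), Trp53 (-0.72), Fas (-0.69) and Bak1 (-0.51), lower in M2. Between M2 and M3 they were Eda2r (1.52), Btg2 (1.37), Ccng1 (1.16), Pmaip1 (0.73), Aen (0.69), Zmat3 (0.60) and Phlda3 (0.50), higher in M2, and Bmf (-0.97), Bcl2 (-0.76), Trp53 (-0.56) and Casp8 (-0.37), lower in M2. Between M1 and M3 they were Bmf (-0.88) and Bcl2 (-0.70), lower in M1. Ccng1, Eda2r and Trp53 in both M2 comparisons and Btg2 in M2 against M3 kept their call without any 1 library; the other 15 lost it without at least 1.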

How the results depend on the processing

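The number of members called stayed within 1.5 times its value in 288 repeats and moved further in 107. With other scaling, no member that was called with either changed direction. Without 1 library the counts ran from 20 to 23 for M1 against Py2T LT, 16 to 25 for M2, 18 to 25 for M3, 18 to 26 for the mean of the clones, 4 to 13 for M2 against M1, 4 to 16 for M2 against M3 and 0 to 13 for M1 against M3. In the shRNA set they ran from 6 to 21 for shTet2 against shControl, 6 to 24 for shMbd3 against shControl and 0 to 17 for shTet2 against shMbd3. Within CI994 these ranges were 5 to 19, 1 to 15 and 1 to 21. For CI994 they were 0 to 18 in shTet2, 0 to 14 in shMbd3 and 3 to 26 in shControl, and for the interactions 0 to 15 (Tet2), 0 to 19 (Mbd3) and 0 to 2 (between the knockdowns). The 26, 15 and 19 came without shControl replicate 2, when the library that stands apart was the only untreated control.

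Fitting only the groups compared gave 5 members for M2 against M1, 17 for M2 against M3 and 0 for M1 against M3. It gave 0 for shTet2 and 0 for shMbd3 against shControl and 0 for CI994 in shControl, the comparisons with the divergent pair, where 7, 9 and 8 members had an unadjusted p under 0.05 with limma and 11, 16 and 11 were called by edgeR on all libraries. It gave 19 for shTet2 against shMbd3, 18 for CI994 in shTet2 and 13 in shMbd3, 21, 16 and 23 for shTet2 and shMbd3 against shControl and shTet2 against shMbd3 within CI994, and 2 for the difference of the knockdowns' responses.

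With the replicate block, the count was 17 for CI994 in shControl, 7 for CI994 in shMbd3 and 13 for shTet2 against shControl within CI994, and every call in CPM was kept in its direction; same-numbered deviations correlated between -0.12 and 0.13 in RPKM and between 0.096 and 0.52 in CPM. With the GC trend removed it was 13 for shTet2 against shMbd3, 9 for CI994 in shMbd3, 18 for shTet2 against shControl and 16 for shTet2 against shMbd3 within CI994, and 1 for the Tet2 interaction. With the GC trend removed and the replicate block it was 18 for M2 against M3, 20 for shTet2 against shControl, 15 for shTet2 against shMbd3, 15 for CI994 in shTet2, 13 for CI994 in shMbd3, 21, 17 and 18 for the 3 comparisons within CI994, and 1 for each interaction with shControl. With no filter it was 0 for M1 against M3, where 15 members had an unadjusted p under 0.05, and 4 for shTet2 against shMbd3 within CI994. With an offset of 0.1 it was 1 for M1 against M3. DESeq2 gave 7 for CI994 in shMbd3, 13 for shTet2 against shMbd3 within CI994 and 1 for the Mbd3 interaction.

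Among members called in the reported fit or in the repeat, direction turned only with the GC trend removed. A change of sign in a member called in neither was not counted. With it and the replicate block, Trp53inp1 and Casp9 gave 0.32 and -0.41 in shMbd3 against shControl, Ccng1, Casp8 and Casp9 gave 0.55, 0.20 and -0.15 for CI994 in shControl, and Ccng1 and Trp53inp1 gave 0.26 and 0.41 for CI994 in shTet2. Without the block Ccng1 and Casp9 also turned for CI994 in shControl, at 0.55 and -0.15. Of these only Casp9 with CI994 in shControl had been called. Of the calls, 18 of 23 in the mean of the clones held in every repeat, against 4 of 8, 1 of 10 and 1 of 8 in the 3 comparisons within CI994 and none in the other shRNA comparisons. The cause of these shifts was not tested. With 2 libraries a group, a library that differs from its pair decides many calls, and depth of the RPKM libraries is unknown.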

Other observations

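Some apoptosis genes outside the 33 members also differed between the shRNA lines. They were picked by the size of their difference, so their direction is not that of the list as a whole. With CI994, Bnip3, which acts in mitophagy and cell death, averaged 11.5 CPM in shMbd3 cells and 42.2 CPM in shControl cells (-1.85 ± 0.17, adjusted p = 0.00013 with limma). Bcl2l2, the gene of the pro-survival protein Bcl-w, averaged 9.02 CPM in shMbd3 cells and 19.2 CPM in shControl cells with CI994 (-1.08 ± 0.20, adjusted p = 0.0049). Casp12, an inflammatory-type caspase, averaged 2.94 CPM in shTet2 cells and 8.90 CPM in shControl cells with CI994 (-1.47 ± 0.25, adjusted p = 0.0040). Tnfsf10, the gene of TRAIL, was the 1 gene of both outside lists that passed an interaction test, with shTet2 and CI994 (2.25 ± 0.27, adjusted p = 0.016). That interaction rests on the untreated shControl libraries that differ from each other.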
